A study of Mus musculus with 100 samples.

Results

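Binding of transcriptional coregulators and acetylation of histone H3 at lysine 27 (H3K27ac) were examined at 9 mouse genes of peroxisome proliferator-activated receptor (PPAR) signaling and fatty acid handling: Pparg, Ppard, Cd36, Fabp4, Fabp5, Plin2, Cpt1a, Angptl4 and Lpl. Every region whose listed nearest gene was 1 of these 9 was taken from the 15 deposited tables of tags per region, which gave 933 regions of 610301 and 9 gene names of 18524. A listed gene is the one with the nearest transcription start site (TSS) and need not be the gene that a region acts on. Linking region centres by steps of at most 500 bp joined the 933 regions into 164 sites, of which 43 appeared in 1 table and 7 in all 15. The number of regions ran from 23 for Fabp4 to 229 for Pparg, and 162 regions (17.4%) lay within 2 kb of a TSS. Before testing, 931 of the 933 regions passed a minimum on tags, and the 2 that did not were listed for Fabp5.

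The series is chromatin immunoprecipitation followed by sequencing (ChIP-seq) in bone marrow-derived macrophages (BMDMs) and in bone marrow cells on the way to osteoclasts, all labelled C57Bl6. BMDMs received vehicle (Veh) or Kdo2 lipid A (KLA), an agonist of Toll-like receptor 4 (TLR4), for 6 h where a time is labelled. In BMDMs labelled wild type, Veh and KLA were compared for NCoR, a corepressor of nuclear receptors, its partner HDAC3, a histone deacetylase, the NFκB subunit p65, the AP-1 subunit Fosl2, the macrophage lineage factor PU.1, the coactivator PGC1β, the kinase ERK1 and the acetyltransferase p300. An inhibitor of ERK (ERKi) was given with KLA in further NCoR libraries, and in a second PGC1β experiment whose other groups were DMSO with Veh and DMSO with KLA. ERK1 and p300 were also profiled in bone marrow cells labelled wild type at Day0 and Day4 of culture with the osteoclast cytokines M-CSF and RANKL. All of these ERK1 libraries but a Day4 library are further described as NCoRWT.

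H3K27ac was profiled in 3 experiments. The first had NCoR flox/flox cells, the control of that experiment (WT), and NCoR flox/flox, LysMCre cells (NKO), each with Veh and with KLA. The second had PGC1b flox/flox cells (flox) and PGC1b flox/flox, LysMCre cells (flox Cre), each with Veh and with KLA. The third had wild-type cells with DMSO and Veh, DMSO and KLA, or KLA with the HDAC3 inhibitor RGFP966. LysMCre expresses Cre recombinase in myeloid cells, the control cells of both knockout experiments carry the same floxed alleles without Cre, and ChIP-seq tags do not measure how complete the deletion was. Each group had 2 libraries. The labels call them separate samples and do not say whether they came from separate animals or cultures, so p-values measure only the spread between these samples.

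PPARγ and PPARδ are ligand-activated nuclear receptors that bind DNA together with the retinoid X receptor (RXR), preferentially at a DR1 element, which is 2 copies of the hexamer AGGTCA in the same direction with 1 base between them. Fatty acids and their derivatives act as ligands. Without ligand such receptors can hold NCoR, which brings HDAC3 and keeps nearby histones poorly acetylated, and with ligand they recruit coactivators such as PGC1β and p300. In macrophages PPARγ controls lipid uptake and restrains inflammatory genes. The other 7 genes are known PPAR targets and act along the path of a fatty acid. Lpl encodes the lipase that frees fatty acids from circulating triglyceride, and Angptl4 encodes its inhibitor. Cd36 encodes a scavenger receptor that takes up fatty acids and oxidized lipoprotein. Fabp4 and Fabp5 encode carriers of fatty acids in the cell, Plin2 encodes a coat protein of lipid droplets, and Cpt1a encodes the enzyme that commits fatty acids to mitochondrial oxidation.

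The sequences of 7 distal or intronic regions are given first because results described below turn on them, and each is the central 200 bases of an NCoR region on the + strand of GRCm38.p6 (mm10), from RefSeq. The Angptl4 region (chr17:33779344-33779543, intron 3 of 6) lost NCoR, HDAC3, PU.1 and p300 with KLA. The Fabp5 region (chr3:9984005-9984204, intergenic) and the Lpl regions in intron 1 of 9 (chr8:68886794-68886993) and downstream of the gene (chr8:68926533-68926732, intergenic) gained binding of several factors. The Ppard region (chr17:28247722-28247921, intron 2 of 7) differed in H3K27ac between NKO and WT. The Plin2 region (chr4:86671840-86672039, intergenic) was the only 1 of the 91 NCoR regions of these genes with a DR1 match in this window, and the Cd36 region (chr5:17879999-17880198, intron 1 of 15) changed in H3K27ac in both the PGC1b and the RGFP966 experiment. Capitals mark matches to the motifs given after the sequences.
Angptl4 +2.13 kb: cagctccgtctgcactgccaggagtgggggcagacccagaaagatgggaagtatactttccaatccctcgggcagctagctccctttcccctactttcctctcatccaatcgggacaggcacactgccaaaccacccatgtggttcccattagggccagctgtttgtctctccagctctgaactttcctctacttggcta
Fabp5 -28.5 kb: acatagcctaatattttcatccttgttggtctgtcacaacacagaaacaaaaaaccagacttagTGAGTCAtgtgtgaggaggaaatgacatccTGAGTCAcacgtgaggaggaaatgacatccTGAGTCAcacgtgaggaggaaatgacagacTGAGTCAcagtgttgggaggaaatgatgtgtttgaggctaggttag
Lpl +6.34 kb: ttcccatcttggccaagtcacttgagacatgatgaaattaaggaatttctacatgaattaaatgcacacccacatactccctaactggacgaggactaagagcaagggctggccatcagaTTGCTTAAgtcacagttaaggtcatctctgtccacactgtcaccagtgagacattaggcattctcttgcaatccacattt
Lpl +46.1 kb: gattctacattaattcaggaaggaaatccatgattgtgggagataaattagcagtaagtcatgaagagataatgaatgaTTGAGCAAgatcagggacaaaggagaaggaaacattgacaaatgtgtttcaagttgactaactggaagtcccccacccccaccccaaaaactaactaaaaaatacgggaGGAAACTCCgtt
Ppard +15.1 kb: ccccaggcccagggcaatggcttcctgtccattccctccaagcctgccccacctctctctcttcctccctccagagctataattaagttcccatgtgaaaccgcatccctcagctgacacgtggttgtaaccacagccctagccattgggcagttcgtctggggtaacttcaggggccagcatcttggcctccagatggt
Plin2 -1.88 kb: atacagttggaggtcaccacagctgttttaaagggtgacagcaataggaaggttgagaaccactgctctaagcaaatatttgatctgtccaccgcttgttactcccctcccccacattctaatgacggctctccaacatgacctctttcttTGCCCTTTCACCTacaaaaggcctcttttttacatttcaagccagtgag
Cd36 +8.86 kb: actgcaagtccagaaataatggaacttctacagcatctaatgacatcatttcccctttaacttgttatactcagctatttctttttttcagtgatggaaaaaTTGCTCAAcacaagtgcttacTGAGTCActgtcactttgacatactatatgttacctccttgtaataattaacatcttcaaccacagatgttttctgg

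Distances are from region centre to the listed TSS, which is the nearest of a gene's transcript starts, and negative values lie upstream. For 7 of the genes all regions were listed against 1 start. Cd36, on the - strand of chromosome 5, had 3 listed starts, at 17835896 (Cd36 regions given at -1.39 to -6.38, +1.89 to +1.90 and +57.9 kb, and the promoter), 17849792 (-4871 bp, and -4.88, -4.92, -7.69 and -7.71 kb) and 17888959 (+3.47 and +8.76 to +8.90 kb). Pparg, on the + strand of chromosome 6, had 4, of which 115360951 (-43.8 and -43.9 kb), 115362349 (+6.44 to +13.2 kb) and 115422066 (-0.244 and +41.0 to +58.9 kb) were those of the regions described. Differences between 2 distances in these 2 genes are therefore not lengths along the genome. Motifs were searched on both strands of such 200-base windows. They were DR1 with at most 2 mismatches in the hexamers, AP-1 (TGANTCA), PU.1 (AGGAAGT), NF-kB (GGANTTTCC) and C/EBP (TTGCNNAA). The Fabp5 window held AP-1 matches at bases 65 to 71, 95 to 101, 125 to 131 and 155 to 161. In the Lpl intron a C/EBP match lay at bases 121 to 128, and downstream of Lpl an NF-kB match lay at bases 189 to 197 and a C/EBP match at bases 80 to 87. The Cd36 window held a C/EBP match at bases 103 to 110 and an AP-1 match at bases 124 to 130, and the Plin2 window held the DR1 match, with 2 mismatches, at bases 152 to 164. The Angptl4 and Ppard windows held none of the 5 motifs.

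Over all 55038 NCoR windows, 3.56% held DR1, 20.9% AP-1, 25.6% PU.1, 2.21% NF-kB and 16.2% C/EBP. Among the 91 windows of the 9 genes, 1 held DR1, 19 AP-1 (20.9%), 12 PU.1 (13.2%), 1 NF-kB and 19 C/EBP (20.9%). A match is a description of the letters and not evidence of binding.

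The RefSeq promoter table (250 bases before to 50 after the start) held 5 of the 9 genes: Cd36, Cpt1a, Plin2, Ppard and Pparg. DR1 matches with 2 mismatches occurred in 2 of these 5 promoters, Cd36 (bases 188 to 200) and Plin2 (bases 26 to 38), against 3.81% of all 27025 promoters. The other motifs occurred in 0 of the 5, against 7.93% (AP-1), 9.57% (PU.1), 1.23% (NF-kB) and 10.8% (C/EBP) of all promoters. NCoR regions overlap both promoters with a match, but neither match lies in the central 200 bases of its NCoR region. The Cd36 match is within the NCoR region, 111 bp from its centre, and the Plin2 match lies outside, 84 bp beyond its end. Both are printed 5′ to 3′ on the gene's own strand (-), from chr5:17835847-17836146 and chr4:86670010-86670309 of the same build, with the match in capitals.
Cd36 promoter: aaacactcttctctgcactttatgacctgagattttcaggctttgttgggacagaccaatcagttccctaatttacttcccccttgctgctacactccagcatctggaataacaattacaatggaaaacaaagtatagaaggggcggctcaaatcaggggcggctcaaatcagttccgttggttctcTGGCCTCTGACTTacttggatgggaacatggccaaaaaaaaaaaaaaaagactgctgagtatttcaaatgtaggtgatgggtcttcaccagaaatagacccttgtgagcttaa
Plin2 promoter: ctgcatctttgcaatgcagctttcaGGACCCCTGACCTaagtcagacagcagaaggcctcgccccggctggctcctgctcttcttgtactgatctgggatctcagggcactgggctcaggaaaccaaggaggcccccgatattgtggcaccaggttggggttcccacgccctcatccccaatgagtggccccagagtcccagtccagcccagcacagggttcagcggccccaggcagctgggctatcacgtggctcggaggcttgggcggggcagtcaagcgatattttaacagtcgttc

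Library totals were 4.30 M to 21.5 M tags (median 13.7 M, with M for mega) over 70 libraries, and 2.79% to 52.8% of a library's tags lay in listed regions. Replicates correlated at r = 0.484 to 0.978 across regions. The KLA libraries of 2 assays stood apart from each other, since HDAC3 replicate 2 held 5.69 M tags with 46.5% in regions against 17.1 M with 31.2%, and Fosl2 replicate 1 held 4.30 M with 16.4% against 8.55 M with 32.3%. Macrophage marker promoters carried H3K27ac in 6 of 6 genes of the PGC1b and RGFP966 experiments (summed 1351 to 3097 tags per 10 M) and in 3 of 6 of the WT and NKO experiment, where Adgre1, Csf1r and Lyz2 had no region. No promoter region was listed for the 5 adipocyte markers (Adipoq, Cidec, Lep, Plin1 and Retn), the 2 T cell markers or the 2 B cell markers in any of these tables or in the p300 table of Day0 and Day4. Osteoclast markers had 0 of 4 in the PGC1b and RGFP966 experiments and 1 of 4 in the WT and NKO experiment (8.33 to 48.7), and of the 3 neutrophil markers only S100a8 had a region (17.7 to 81.0 in the first 2 of these experiments and 14.9 to 34.2 for p300).

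To ask how TLR4 signaling redistributed each factor at these genes, KLA was compared with Veh. Values are tags per 10 M by the library total, with replicate 1 before replicate 2. A region was called, and is said to have risen or fallen, at an adjusted p under 0.05 from edgeR's quasi-likelihood test over all regions of the table with a change of more than 2-fold, and log2 differences carry their standard error (SE). Libraries differed in how many of their tags fell inside regions, so each count is also given with TMM scaling (trimmed mean of M-values) computed on the listed regions. In these bulk samples fewer cells with a bound region and less binding per cell cannot be told apart.

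NCoR rose at 13 and fell at 21 of 91 regions of the 9 genes (14.3% and 23.1%), against 23.4% and 16.7% of all regions, and TMM gave 13 and 22. Without KLA replicate 1 or 2 the 34 calls of NCoR became 18 or 19. HDAC3 rose at 14 and fell at 15 of 78 (17.9% and 19.2%), against 27.5% and 11.3% of all, with 12 and 20 under TMM. The 29 calls of HDAC3 became 34 (20 higher) without KLA replicate 1 and 29 (11 higher) without KLA replicate 2, the libraries that stood apart, and 10 or 9 without Veh replicate 1 or 2. For both corepressor components the share that fell was larger and the share that rose smaller at these genes than over all regions. The median log2 difference was -0.21 for NCoR against 0.10 over all regions, and 0.08 for HDAC3 against 0.27 (-0.15 against -0.01 with TMM).

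PU.1 rose at 3 and fell at 21 of 74 regions (4.05% and 28.4%), against 4.53% and 21.7% of all, with 4 and 10 under TMM, which moved the median of all regions from -0.41 to 0.00. p65 rose at 37 and fell at 8 of 86 (43.0% and 9.30%), against 57% and 5.43% of all. This p65 balance turned with TMM, to 14 higher and 30 lower, as the median of all regions moved from 1.46 to 0.24. Without KLA replicate 1 or 2 the 45 calls of p65 became 23 or 22. p300 rose at 37 and fell at 20 of 105 (35.2% and 19.0%), against 42.1% and 12.9% of all, and with TMM rose at 28 and fell at 30 (median of all regions 0.65 and 0.14). With library totals and with TMM, p65 and p300 rose at a smaller share and fell at a larger share of these regions than of all regions.

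PGC1β rose at 10 and fell at 7 of 77 (13.0% and 9.09%), against 16.4% and 6.35% of all, and at 9 and 10 with TMM. Its 17 calls became 9 or 6 without Veh replicate 1 or 2. In the DMSO experiment PGC1β rose at 12 and fell at 3 of 94 (12.8% and 3.19%), against 16.4% and 1.23%, and TMM gave 5 and 5 (median of all regions 0.45 and 0.01). These 15 calls became 6 and 9 without DMSO with Veh replicate 1 and 2, and 9 without DMSO with KLA replicate 1. Fosl2 was called higher at 1 and lower at 3 of 55 regions, against 11.4% and 4.19% of all, and TMM gave 6 and 7. The 4 calls of Fosl2 became 17 and 18 without KLA replicate 1 and 2, which stood apart, and 0 without either Veh library. Of the calls of Fosl2 named below, those at Fabp5 -43.1 kb, Lpl +71.4 kb and Ppard +18.9 kb were each kept without either KLA library and lost without either Veh library. ERK1 was called higher at 2 and lower at 2 of 56, against 10.3% and 2.53%, and TMM gave 0 and 4 (median of all regions 0.26 and 0.06), with 1 and 0 calls left without KLA replicate 1 and 2.

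**Figure D1:**
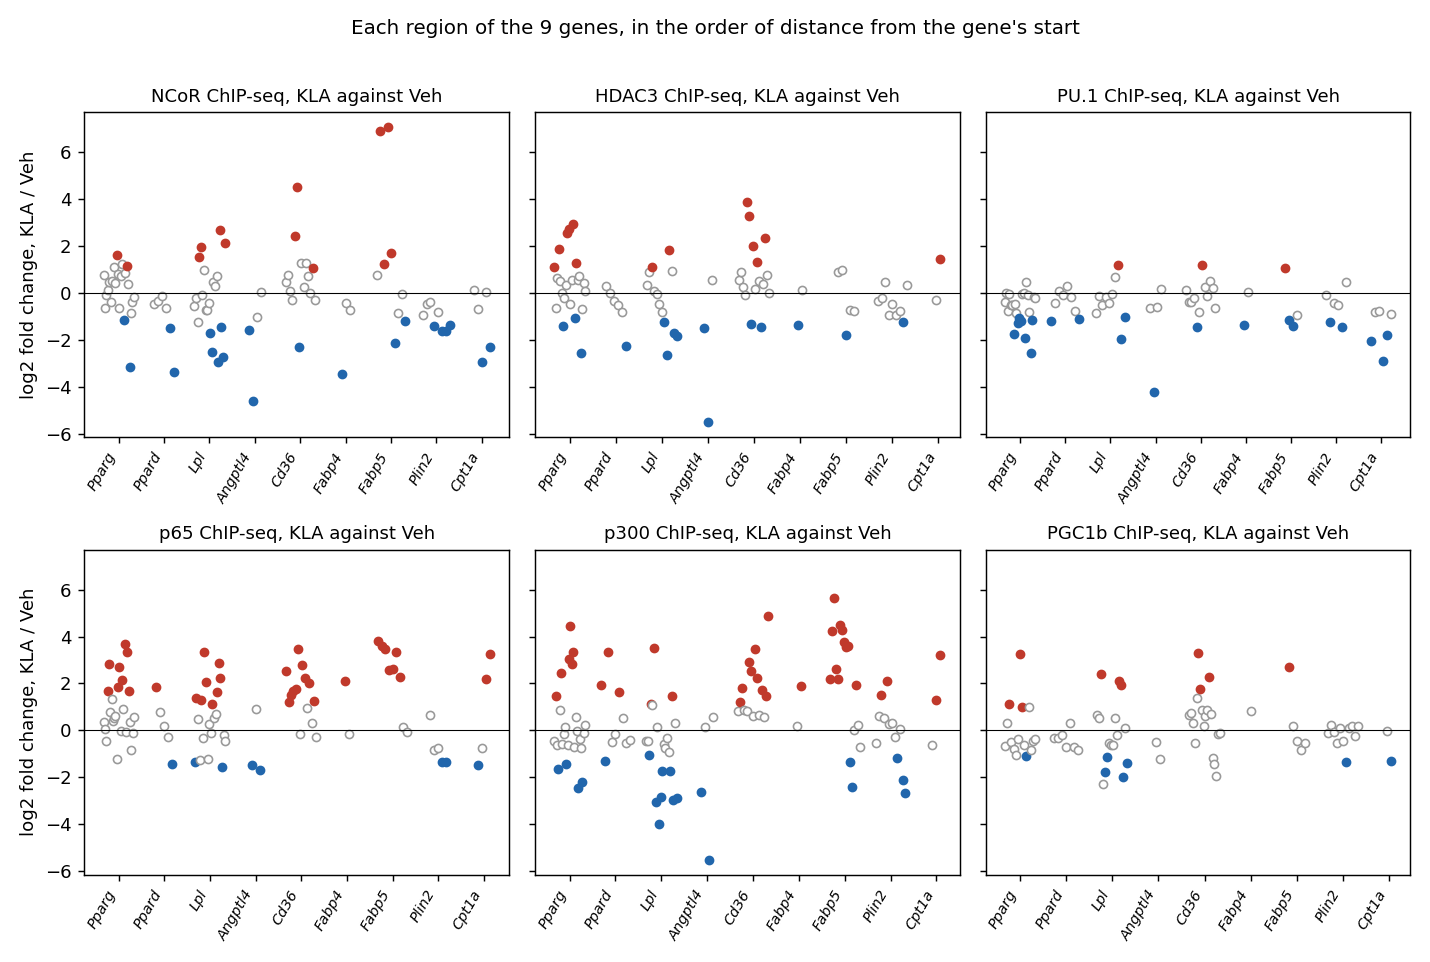
Log2 difference between KLA and Veh (vertical axis) of every region of the 9 genes for 6 factors (one panel each), with the regions of a gene in order of distance to the TSS. Red points were called higher, blue points called lower and open grey points not called with library totals. The lowest points of the NCoR and HDAC3 panels belong to Angptl4 (-4.58 and -5.51), and the 2 highest NCoR points of Fabp5 had no tags with Veh, so that their height depends on the prior count.

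Over the 8 factor comparisons of KLA with Veh (without the DMSO experiment), 153 sites of the 9 genes were listed. With library totals 54 were called higher in at least 1 assay and lower in none, 42 were lower in at least 1 and higher in none, 1 was both and 56 were neither, and with TMM these numbers were 36, 53, 2 and 62. A site called in only 1 assay cannot be called in opposite directions by different assays. Sites were not counted over all genes of the series, so these numbers are a description of the 9 genes. All 8 assays share the cell type and the treatment. Genes differed in the balance. Angptl4 had 3 sites that were lower and 0 higher of 5, Plin2 7 and 2 of 20, and Cpt1a 5 and 2 of 10. Cd36 had 2 lower and 15 higher of 26 (4 and 8 with TMM), Fabp5 4 and 10 of 17, and Pparg 8 and 12 of 32 (8 and 7 with TMM). Lpl had 9 of each, beside the 1 site of both kinds, of 29 (14 lower and 6 higher with TMM).

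Angptl4, the lipase inhibitor, showed the deepest loss. In intron 3, at +2.13 kb, NCoR was 264 and 365 tags per 10 M with Veh and 11.3 and 14.5 with KLA. On the log2 scale NCoR fell by 4.58 ± 0.29 (SE), with an edgeR adjusted p = 2.34e-05. HDAC3 in the same place held 246 and 242 with Veh and 5.27 and 5.27 with KLA (-5.51 ± 0.50, edgeR adjusted p = 4.22e-25). Both corepressor components were thus high with Veh and far lower with KLA, with no overlap of the groups. PU.1 fell there from 71.9 and 75.3 to 3.27 and 4.46 (-4.22 ± 0.31, edgeR adjusted p = 4.68e-26). p300 fell from 52.0 and 26.3 to 1.02 and 0.540 (-5.51 ± 0.68, edgeR adjusted p = 4.18e-06), and p65 from 56.9 and 35.4 to 18.7 and 9.58 (-1.70 ± 0.48, edgeR adjusted p = 0.00955). Fosl2 was 53.6 and 51.4 with Veh and 14.0 and 7.01 with KLA, a difference that did not pass the threshold with library totals (edgeR adjusted p = 0.0989) and did with TMM.

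**Figure D2:**
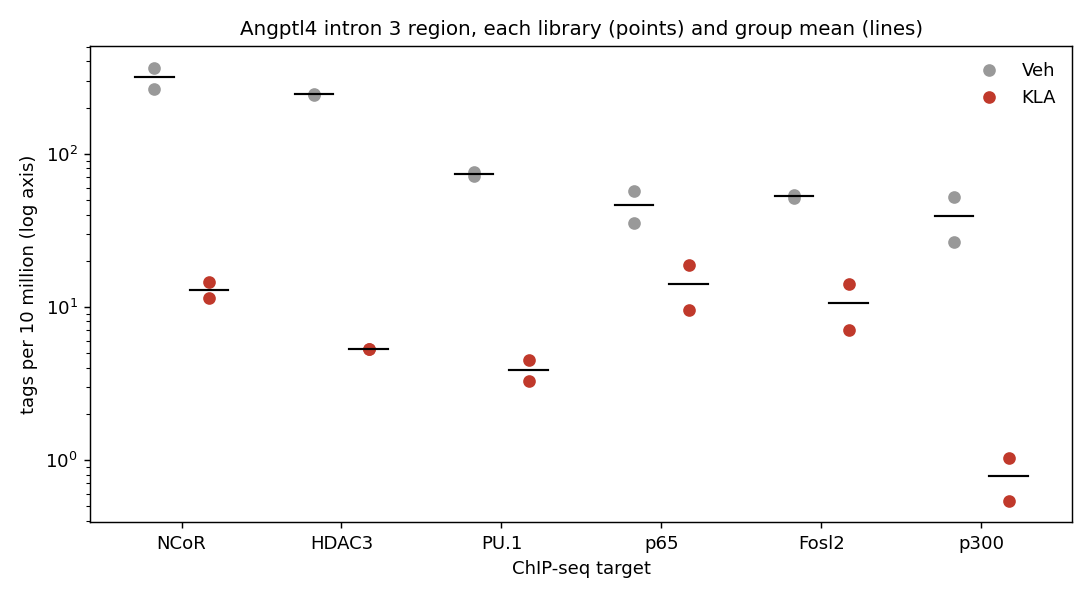
Tags per 10 M (log axis) at the region in intron 3 of Angptl4 for 6 factors, with 1 point per library (Veh grey, KLA red) and a line at each group mean. The KLA libraries lie below the Veh libraries for every factor, from 0.540 to 18.7 with KLA against 26.3 to 365 with Veh.

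Closer to the start of Angptl4, in intron 2 at +0.895 kb, NCoR fell from 201 and 212 to 74.5 and 63.6 (-1.58 ± 0.22, edgeR adjusted p = 0.000365) and HDAC3 from 216 and 202 to 75.6 and 75.5 (-1.47 ± 0.37, edgeR adjusted p = 0.000375). p300 at this site did not follow, with 35.1 and 29.6 before and 39.9 and 31.9 after KLA, and its groups overlapped. At the promoter p300 fell from 21.9 and 21 to 3.07 and 3.78 (-2.63 ± 0.54, edgeR adjusted p = 0.000531) and p65 from 26.3 and 31.7 to 9.35 and 11.6 (-1.46 ± 0.50, edgeR adjusted p = 0.0237). No region of Angptl4 rose with KLA in any of the 8 assays by edgeR, with either scaling.

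Lpl, the lipase itself, changed in opposite directions along the locus. In intron 1, at +6.34 kb, p65 rose from 29.8 and 26.1 to 258 and 309 (3.34 ± 0.25, edgeR adjusted p = 2.11e-06) and p300 from 8.15 and 17.7 to 159 and 132 (3.49 ± 0.30, edgeR adjusted p = 5.88e-08). NCoR rose there from 26.3 and 17.7 to 85.0 and 88.5 (1.98 ± 0.34, edgeR adjusted p = 0.00121). NCoR was therefore higher at this site with KLA together with p65 and p300, each without overlap between the groups. PGC1β rose from 7.64 and 6.51 to 48.1 and 29.2 (2.42 ± 0.48, edgeR adjusted p = 0.00135), and in the DMSO experiment from 13.8 and 13.1 to 65.1 and 58.1 (2.17 ± 0.51, edgeR adjusted p = 0.00376). ERK1 rose from 23.6 and 18.5 to 51.6 and 81.7 (1.66 ± 0.49, edgeR adjusted p = 0.0459), which TMM did not call. HDAC3 had a call (1.11 ± 0.43, edgeR adjusted p = 0.0272), yet its KLA libraries held 83.8 and 26.3 against 26.9 and 27.1 with Veh, so the groups overlapped and the call rests on replicate 1 (-0.036 without it and 1.63 without replicate 2).

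The region downstream of Lpl at +46.1 kb rose for p65 (52.5 and 73.6 to 278 and 313, 2.23 ± 0.23, edgeR adjusted p = 1.74e-05), PGC1β (22.3 and 17.7 to 104 and 70.9, 2.11 ± 0.35, edgeR adjusted p = 0.000273) and p300 (60.2 and 51.9 to 148 and 158, 1.45 ± 0.19, edgeR adjusted p = 8.54e-06, lost with TMM at 0.93). PU.1 rose from 74.5 and 67.2 to 173 and 154 (1.2 ± 0.13, edgeR adjusted p = 1.29e-15), which made it 1 of the 3 regions of the 9 genes where PU.1 rose. NCoR, at 128 and 167 with Veh and 262 and 228 with KLA, differed by less than 2-fold (0.73 ± 0.21).

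Further regions of Lpl fell. At +73.5 kb NCoR went from 528 and 664, its highest level at the 9 genes, to 85.0 and 93.4 (-2.74 ± 0.19, edgeR adjusted p = 2.75e-05). p300 fell there from 161 and 161 to 22 and 22.2 (-2.86 ± 0.22, edgeR adjusted p = 1.81e-08), HDAC3 from 347 and 319 to 89.7 and 96.6 (-1.84 ± 0.39, edgeR adjusted p = 1.39e-05), PGC1β from 90.5 and 110 to 33.9 and 42.3 (-1.38 ± 0.30, edgeR adjusted p = 0.00288) and ERK1 from 143 and 91.3 to 41.8 and 32.7 (-1.64 ± 0.39, edgeR adjusted p = 0.021). The groups were apart for each of these factors. About 2 kb away, at +71.4 kb, 7 of the 8 factors fell, all but ERK1. The same site is the one called in both directions, since a further NCoR region at +72 kb, singled out after its values were seen, rose from 4.78 and 0 to 18.6 and 13.8 (2.71 ± 0.86, edgeR adjusted p = 0.0245), a call lost without KLA replicate 1 or 2. At +71.4 kb NCoR changed from 117 and 154 to 17 and 18.7 (-2.92 ± 0.31, edgeR adjusted p = 0.000111), Fosl2 from 162 and 123 to 6.98 and 22.2 (-3.19 ± 0.87, edgeR adjusted p = 0.00365) and PU.1 from 169 and 161 to 46.5 and 39.5 (-1.94 ± 0.14, edgeR adjusted p = 1.29e-25). ERK1 had an edgeR adjusted p of 0.0651 there (-1.47 ± 0.49) and was called lower with TMM.

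NCoR also fell at +34.2 kb of Lpl, from 514 and 550 to 156 and 172 (-1.69 ± 0.17, edgeR adjusted p = 8.73e-05), and HDAC3 there from 367 and 312 to 105 and 193 (-1.22 ± 0.38, edgeR adjusted p = 0.00535), under 2-fold without KLA replicate 1 (-0.81). At +37.9 kb HDAC3 fell from 99.7 and 85.2 to 14.1 and 15.8 (-2.64 ± 0.46, edgeR adjusted p = 9.82e-08). The Lpl promoter lost p300, from 45.1 and 55.9 to 22 and 26.5 (-1.06 ± 0.31, edgeR adjusted p = 0.00794), while its NCoR libraries overlapped at 58.5 and 144 with Veh and 101 and 74.7 with KLA.

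**Figure D3:**
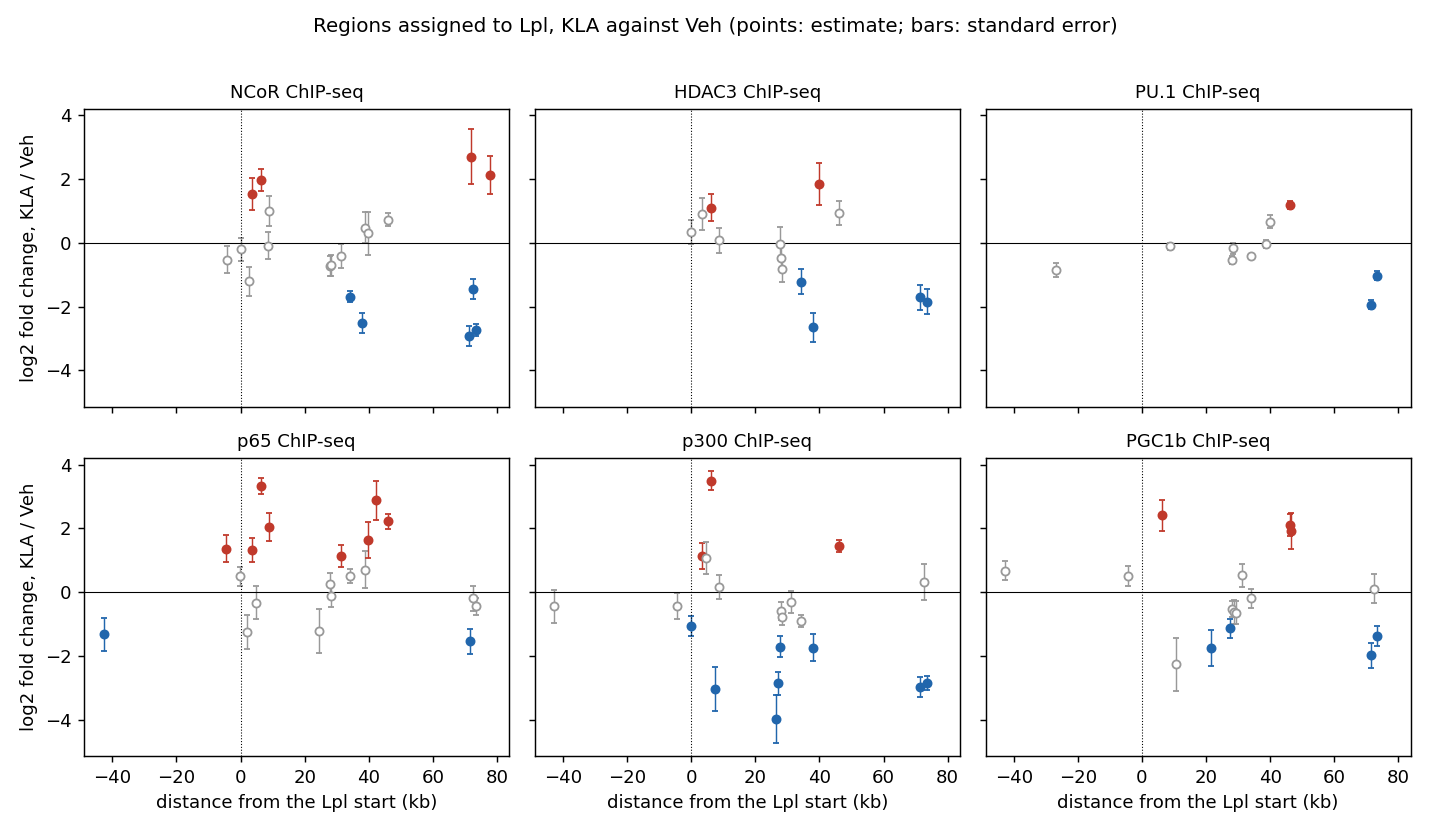
Log2 difference between KLA and Veh (vertical axis) against the distance of each Lpl region from the TSS in kb, for 6 factors, with the estimate as a point and its SE as a bar. Regions at +6.34 and +46.1 kb lie above 0 in the p65, p300 and PGC1β panels (1.45 to 3.49), and regions at +71.4 and +73.5 kb lie below 0 in the NCoR, HDAC3, p300 and PGC1β panels (-2.98 to -1.38).

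Cd36, the fatty acid receptor, lost NCoR and HDAC3 at its promoter and gained them close by. At the promoter NCoR fell from 153 and 188 to 38.1 and 32.5 (-2.27 ± 0.26, edgeR adjusted p = 0.000151), HDAC3 from 135 and 139 to 42.8 and 72.0 (-1.31 ± 0.38, edgeR adjusted p = 0.00211) and PU.1 from 168 and 159 to 50.4 and 68.8 (-1.45 ± 0.13, edgeR adjusted p = 5.16e-19). Without KLA replicate 1, HDAC3 there was under 2-fold (-0.93). This is the promoter printed above, with its DR1 match at 111 bp from the centre of the NCoR region. At -1.69 kb NCoR rose from 7.17 and 15.3 to 57.5 and 63.6 (2.42 ± 0.45, edgeR adjusted p = 0.00176), and HDAC3 at -1.72 kb from 7.27 and 4.98 to 81.5 and 98.3 (3.87 ± 0.50, edgeR adjusted p = 7.76e-13). A neighbouring region of the same site, at -1.39 kb, gained NCoR as well, from 3.58 and 0 to 47.8 and 40.1 (4.54 ± 0.75, edgeR adjusted p = 0.00101). Loss and gain of both components lay within 2 kb of each other and kept their directions under TMM.

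The Cd36 sites at +1.90 kb (chr5:17833863-17834125) and, upstream of it on the gene's strand, at +3.47 kb of another start (chr5:17885319-17885624) rose for several factors. At +1.90 kb p300 rose from 17.6 and 7.89 to 69.6 and 77.3 (2.51 ± 0.35, edgeR adjusted p = 1.43e-05), HDAC3 from 20.4 and 14.9 to 57.4 and 86.1 (2.00 ± 0.45, edgeR adjusted p = 6.45e-05) and PGC1β from 0.588 and 6.97 to 53.5 and 29.2 (3.31 ± 0.63, edgeR adjusted p = 0.00093). At +3.47 kb p300 rose from 6.27 and 3.29 to 53.2 and 55.7 (3.48 ± 0.43, edgeR adjusted p = 4.18e-06), and PU.1 rose from 37.8 and 39.2 to 86.4 and 91.1 (1.21 ± 0.18, edgeR adjusted p = 1.34e-09). The strongest NCoR region of the gene, at -4871 bp, did not move with KLA beyond its spread, since NCoR was 290 and 318 with Veh and 343 and 307 with KLA. p65 rose in that place from 86.7 and 77.4 to 232 and 241 (1.53 ± 0.21, edgeR adjusted p = 0.000117), which TMM put at 0.30 and did not call, while its rise at -7.71 kb, from 33.3 and 25.2 to 185 and 152 (2.52 ± 0.28, edgeR adjusted p = 2.75e-05), was kept at 1.30.

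Among the carriers of fatty acids, Fabp5 rose in its distal upstream regions and fell at the promoter. In the region at -28.5 kb with its 4 AP-1 matches, p300 rose from 50.8 and 57.2 to 245 and 242 (2.17 ± 0.17, edgeR adjusted p = 3.08e-08) and p65 from 19.3 and 2.80 to 117 and 131 (3.46 ± 0.51, edgeR adjusted p = 0.000167). NCoR rose from 60.9 and 49.4 to 127 and 131 (1.22 ± 0.25, edgeR adjusted p = 0.00312) and PU.1 from 50.2 and 56.6 to 112 and 113 (1.08 ± 0.15, edgeR adjusted p = 3.36e-10). The AP-1 subunit Fosl2 was 102 and 84.9 with Veh and 137 and 343 with KLA, apart in its groups but not past the threshold (edgeR adjusted p = 0.187), and it was called with TMM. ERK1 rose there from 31.5 and 25.4 to 83.6 and 72.1 (1.46 ± 0.43, edgeR adjusted p = 0.0439), which TMM did not keep. With library totals, the single rise of Fosl2 at the 9 genes lay at -43.1 kb of Fabp5, from 0 and 3.15 to 41.9 and 58.5 (4.74 ± 1.23, edgeR adjusted p = 0.00195), and p300 rose in the same place from 1.88 and 0 to 48.1 and 54.6 (5.64 ± 0.63, edgeR adjusted p = 1.46e-06).

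Some Fabp5 regions appeared only with KLA at this depth. At -63.5 and -7.91 kb, regions singled out after their values were seen, NCoR held 0 tags in both Veh libraries and 13.0 and 13.8, and 13.0 and 17.3, with KLA. At the promoter of Fabp5 NCoR fell from 40.6 and 64.7 to 17 and 7.61 (-2.11 ± 0.49, edgeR adjusted p = 0.00594), HDAC3 from 63.3 and 51.4 to 14.1 and 21.1 (-1.77 ± 0.48, edgeR adjusted p = 0.001) and p300 from 37.6 and 47.3 to 18.9 and 14.6 (-1.33 ± 0.36, edgeR adjusted p = 0.00428). PU.1 there fell from 134 and 155 to 43.8 and 66.3 (-1.38 ± 0.14, edgeR adjusted p = 4.10e-16), with -0.97 and no call under TMM.

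Fabp4, on chromosome 3 like Fabp5, had 3 sites. At its promoter p65 rose from 24.5 and 31.7 to 146 and 94.4 (2.09 ± 0.33, edgeR adjusted p = 0.000296, lost with TMM at 0.89) and p300 from 40.7 and 31.5 to 133 and 137 (1.90 ± 0.22, edgeR adjusted p = 1.97e-06). Promoters of the 2 carrier genes thus differed in direction for p300. NCoR at the Fabp4 promoter had overlapping groups, 57.4 and 124 with Veh and 64.0 and 47 with KLA. At the upstream site, NCoR fell at -5.33 kb from 50.2 and 33.0 to 4.05 and 3.46 (-3.44 ± 0.55, edgeR adjusted p = 0.000859), HDAC3 at -4.89 kb from 48.0 and 54.2 to 22.9 and 15.8 (-1.34 ± 0.47, edgeR adjusted p = 0.0131), and PU.1 at -4.86 kb from 154 and 180 to 64.1 and 64.4 (-1.37 ± 0.13, edgeR adjusted p = 3.02e-18, lost with TMM at -0.96). A further NCoR region of this site, given for its place at -4.86 kb beside those of HDAC3 and PU.1, was not called. It held 19.1 and 44.7 with Veh and 23.5 and 24.2 with KLA, with overlapping groups (-0.42 ± 0.48, edgeR adjusted p = 0.497).

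Plin2, the lipid droplet coat gene, mostly fell. At its promoter, where the DR1 match lies outside the NCoR region, NCoR fell from 136 and 132 to 35.6 and 50.5 (-1.63 ± 0.27, edgeR adjusted p = 0.00103) and p65 from 47.3 and 68.1 to 26 and 19.8 (-1.32 ± 0.39, edgeR adjusted p = 0.0112). HDAC3 at the promoter went from 116 and 106 to 38.7 and 84.3, under 2-fold with library totals (-0.93 ± 0.38) and called with TMM (-1.26). At +1.26 kb PU.1 fell from 130 and 131 to 45.8 and 50.3 (-1.44 ± 0.15, edgeR adjusted p = 4.02e-16). The highest NCoR levels of the gene, at -20.3 kb (415 and 433 with Veh, 227 and 221 with KLA) and at -1.88 kb (362 and 432, then 230 and 224), were lower by less than 2-fold (-0.92 ± 0.17 and -0.81 ± 0.17). p300 rose at -9.86 kb, from 13.8 and 14.5 to 66.5 and 57.3 (2.13 ± 0.33, edgeR adjusted p = 3.63e-05), and ERK1 fell at -6.06 kb from 12.6 and 20.8 to 0 and 1.36 (-4.40 ± 1.17, edgeR adjusted p = 0.0322).

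Cpt1a, the gene of fatty acid oxidation, lost PU.1 upstream of its start. At -1.46 kb PU.1 fell from 276 and 308 to 70.7 and 72.0 (-2.03 ± 0.11), which gave the lowest adjusted p of PU.1 at these genes (edgeR adjusted p = 4.12e-37). At the promoter p65 fell from 49.0 and 44.7 to 14.7 and 19.2 (-1.47 ± 0.41, edgeR adjusted p = 0.00883). In intron 1 of 18, at +10.9 kb, p65 rose from 7.00 and 2.80 to 56.8 and 39.7 (3.26 ± 0.56, edgeR adjusted p = 0.00048), p300 from 10.0 and 0 to 49.6 and 45.4 (3.20 ± 0.63, edgeR adjusted p = 0.000341) and HDAC3 from 18.2 and 19.4 to 37.5 and 70.2 (1.46 ± 0.48, edgeR adjusted p = 0.00729), the last under 2-fold without KLA replicate 2 (0.99). Its strongest NCoR region, at +2.20 kb, went from 294 and 297 to 172 and 196, less than 2-fold (-0.68 ± 0.18).

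Pparg, the receptor gene with the most regions, gained binding in the first intron. Further along the gene binding was lost at some sites and gained at others. At +6.44 kb p300 rose from 10.7 and 8.54 to 98.7 and 97.3 (3.34 ± 0.30, edgeR adjusted p = 1.32e-07), p65 from 14.9 and 15.8 to 91.5 and 107 (2.69 ± 0.35, edgeR adjusted p = 6.88e-05), HDAC3 from 11.6 and 9.95 to 69.2 and 73.8 (2.72 ± 0.48, edgeR adjusted p = 2.02e-07), NCoR from 19.1 and 20.0 to 61.6 and 60.2 (1.63 ± 0.37, edgeR adjusted p = 0.00473) and PGC1β from 4.70 and 4.65 to 67.7 and 26.9 (3.28 ± 0.54, edgeR adjusted p = 0.000272). The 5 factors were each apart between Veh and KLA and each kept the call with TMM. The strongest NCoR region of Pparg, at +13.2 kb, went from 148 and 228 to 321 and 306, less than 2-fold (0.73 ± 0.22), and p65 rose there from 40.3 and 51.3 to 214 and 191 (2.14 ± 0.25, edgeR adjusted p = 3.34e-05, lost with TMM at 0.93).

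At +41.0 kb PU.1 fell from 145 and 145 to 39.3 and 38.2 (-1.90 ± 0.15, edgeR adjusted p = 4.45e-23) and p300 from 82.7 and 73.6 to 16.9 and 11.9 (-2.43 ± 0.31, edgeR adjusted p = 5.10e-06). In intron 6 of 7 of Pparg, at +48.0 kb, NCoR fell from 65.7 and 74.2 to 8.10 and 7.61 (-3.14 ± 0.41, edgeR adjusted p = 0.000308), HDAC3 from 80.0 and 84.6 to 9.96 and 21.1 (-2.55 ± 0.47, edgeR adjusted p = 6.80e-07) and PU.1 from 107 and 139 to 20.9 and 20.4 (-2.56 ± 0.19, edgeR adjusted p = 1.87e-25). These sites lost the lineage factor together with corepressor, without overlap of the groups. Between them on the gene lay sites named here because they rose with library totals, at +42662 bp (HDAC3 and p65) and +46102 bp (NCoR and p65). With TMM p65 kept its call at the former and NCoR at the latter, where p300 was called lower. At a promoter of a Pparg transcript, p300 rose at -0.244 kb from 0.627 and 1.31 to 16.4 and 28.6 (4.44 ± 0.73, edgeR adjusted p = 7.17e-05).

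Ppard, the broadly expressed receptor, changed less at its start. Its promoter held NCoR at 49.0 and 42.4 with Veh and 39.7 and 27.7 with KLA (-0.44 ± 0.37, edgeR adjusted p = 0.349). In intron 2 at +15.1 kb, with Veh its strongest region for 7 of the 8 factors (all but PGC1β), NCoR fell from 168 and 201 to 75.3 and 58.8 (-1.47 ± 0.24, edgeR adjusted p = 0.000849), and HDAC3 was 182 and 181 with Veh and 75.6 and 137 with KLA, not past the threshold (-0.81 ± 0.36, edgeR adjusted p = 0.0603, called with TMM at -1.13). At +18.9 kb NCoR fell from 52.6 and 38.8 to 0 and 8.30 (-3.35 ± 0.77, edgeR adjusted p = 0.00551), HDAC3 from 42.9 and 46.5 to 12.3 and 3.51 (-2.26 ± 0.55, edgeR adjusted p = 0.000236) and Fosl2 from 66.3 and 22 to 0 and 7.01 (-3.35 ± 1.14, edgeR adjusted p = 0.0265). p300 rose at -4.95 kb, a region within a neighbouring transcript, from 0 and 4.6 to 30.2 and 16.8 (3.34 ± 0.75, edgeR adjusted p = 0.0011).

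The inhibitor of ERK was used to ask whether the kinase bears on the redistribution with KLA. NCoR with KLA and ERKi was lower than with KLA alone at 53 of the 92 regions (57.6%) and higher at 1 (1.09%), against 48.6% and 0.634% of all regions. With TMM the counts were 6 lower and 2 higher, and the median of all regions moved from -1.20 to -0.04. The labels give the ERKi libraries another library date than the KLA libraries, so inhibitor and date cannot be told apart, and the KLA libraries are those of the comparison with Veh. Angptl4 held the only region that was higher. At +2.12 kb NCoR was 12.1 and 15.9 with KLA and 50.7 and 50 with ERKi (1.83 ± 0.32, edgeR adjusted p = 0.000615, 2.99 with TMM), still below both Veh libraries given above. The neighbouring Angptl4 region at +0.895 kb was 74.5 and 63.6 with KLA and 71.9 and 56.9 with ERKi, which was not called with library totals (-0.10 ± 0.25) and was called higher with TMM (1.07).

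All 14 Cd36 regions were lower for NCoR with ERKi. At -4.92 kb NCoR was 429 and 378 with KLA and 142 and 120 with ERKi (-1.62 ± 0.18, edgeR adjusted p = 7.58e-05, -0.46 and not called with TMM). Regions were merged anew for this comparison, so the values with KLA differ from those given above for this site. At -1.69 kb, where KLA had raised it, NCoR went from 57.5 and 63.6 to 2.54 and 8.62 (-3.42 ± 0.59, edgeR adjusted p = 0.000611) and at +1.89 kb from 28.3 and 47 to 0 and 2.59 (-4.77 ± 0.88, edgeR adjusted p = 0.000913). These calls were kept with TMM, as was the one at -6.38 kb (56.7 and 75.4 to 9.30 and 8.62, TMM -1.71), a region named for that count. The other 3 regions lower under both scalings were Pparg +6.44 kb (61.6 and 60.2 to 10.1 and 6.03, -2.89 ± 0.48, edgeR adjusted p = 0.000474), Pparg -43.9 kb (82.6 and 74.7 to 12.7 and 2.59, -3.34 ± 0.46, edgeR adjusted p = 0.000172) and Fabp4 -4.86 kb (23.5 and 24.2 to 0 and 0.862, -5.48 ± 0.99, edgeR adjusted p = 0.000799). Lower calls with library totals also came from Pparg (18 of 23 regions), Fabp5 (7 of 9), Lpl (4 of 20), Plin2 (4 of 8), Fabp4 (2 of 3), Ppard (2 of 6), Cpt1a (1 of 5) and Angptl4 (1 of 4).

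For PGC1β, ERKi with KLA against DMSO with KLA changed 0 of the 94 regions in either direction by edgeR, against 0.108% of all regions higher and 0.178% lower. An unadjusted p under 0.05 was reached by 4 in the higher and 19 in the lower direction, and the Wald test of DESeq2 called 0. At Pparg +6.46 kb PGC1β was 57.2 and 55.1 with DMSO and KLA and 18.8 and 18.1 with ERKi and KLA (-1.60 ± 0.67, edgeR adjusted p = 0.275). The groups were apart there, and the difference did not pass the threshold.

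Osteoclast differentiation was examined in bone marrow cells. The p300 libraries of Day0 held 3.08% and 3.16% of their tags in regions, against 9.61% and 9.53% at Day4. Replicate 2 of Day0 held 4.70 M tags, and the Day0 replicates correlated at r = 0.558. At Day4 p300 was higher than at Day0 at 10 and lower at 1 of 32 regions (31.2% and 3.12%), against 62.2% and 0.248% of all. With TMM 0 regions were higher and 7 lower, and the median of all regions moved from 1.84 to 0.22, so the balance of directions turned with the scaling. The count was 2 without either Day4 library and 18 without Day0 replicate 2. Over the same libraries the summed p300 at promoters of osteoclast markers (3 of 4 with a region, Dcstamp without) ran from 106 to 587 tags per 10 M and that of macrophage markers from 341 to 506. The Fabp4 promoter went from 11.4 and 4.26 to 37.2 and 68.1 (2.55 ± 0.64, edgeR adjusted p = 0.00512), Fabp5 at +10.1 kb from 31.6 and 17 to 125 and 71.5 (1.92 ± 0.45, edgeR adjusted p = 0.00344), Cd36 at +8.90 kb from 37.8 and 55.4 to 149 and 129 (1.62 ± 0.35, edgeR adjusted p = 0.0024) and Pparg at -43.9 kb from 14.1 and 6.39 to 49.9 and 52.2 (2.18 ± 0.58, edgeR adjusted p = 0.00696). All of these lost the call with TMM. Cd36 at +57.9 kb fell with both scalings, from 32.5 and 27.7 to 2.93 and 7.94 (-2.49 ± 0.69, edgeR adjusted p = 0.0083, -4.09 with TMM), and 5 of the 7 regions lower with TMM were Lpl regions between +27.4 and +71.4 kb.

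ERK1 at Day4 was higher at 2 and lower at 0 of 39 regions by edgeR, against 2.33% and 0.0267% of all. The labels give Day4 replicate 2 another library date than the other 3 ERK1 libraries, and only those 3 are described as NCoRWT. The part of these differences in the result was not tested. TMM and DESeq2 called 0, and an unadjusted p under 0.05 was reached by 13 in the higher and 0 in the lower direction. The count was 0 without either Day4 library and 4 without Day0 replicate 2. The regions were Plin2 at -6.08 kb (2.58 and 0 to 23.3 and 31.1, 4.16 ± 1.01, edgeR adjusted p = 0.0379) and Pparg at -43.8 kb (4.30 and 7.36 to 70.0 and 19.1, 2.91 ± 0.77, edgeR adjusted p = 0.0487). Plin2 at -6.08 kb is the site that lost ERK1 with KLA in BMDMs.

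H3K27ac, the mark of active promoters and enhancers, was then compared. It was counted at 17 regions of these genes in the PGC1b and RGFP966 tables, of which 16 were tested, and at 20 in the WT and NKO table. No H3K27ac region was listed for Angptl4, and none for Lpl or Fabp4 in the WT and NKO table. In the DMSO libraries with Veh the levels were highest at Plin2 +0.595 kb (841 and 843 tags per 10 M), followed by the Plin2 promoter (568 and 543), Fabp5 +13.4 kb (395 and 420), the Lpl promoter (326 and 333) and Pparg +58.9 kb (277 and 274). The strongest region of Cd36 (-3.82 kb) held 235 and 226, Cpt1a (-1.57 kb) 111 and 116, Fabp4 (-4.88 kb) 75.6 and 78.5, and the Ppard promoter 49.8 and 31.4. Libraries of neighbours in this order did not overlap. The regions of these 2 tables are all 1000 bp wide, so their levels can be set side by side.

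With library totals, H3K27ac fell with KLA at some of these regions and rose at 0. Legends of the paper describe H3K27ac counted at open-chromatin (ATAC-seq) peaks found with Veh. If the listed regions were chosen in that way, sites that open only with KLA are missing, and gains there would not be seen. The counts therefore concern the listed regions only. In WT 0 regions rose and 1 fell of 20 (6.49% and 3.72% of all), in NKO 0 and 3 (2.75% and 7.96%), in flox 0 and 2 of 16 (5.22% and 25.6%), in flox Cre 0 and 6 (4.18% and 32.5%), and with DMSO 0 and 5 (6.73% and 28.1%). With TMM the higher and lower counts were 0 and 2, 0 and 1, 2 and 1, 0 and 2, and 0 and 3, and the medians of all regions moved from -0.45, -0.62 and -0.42 to values from -0.02 to 0.00 in the last 3 settings. By an unadjusted p under 0.05, 1, 0, 4, 0 and 0 regions were higher, and by DESeq2 0, 0, 2, 0 and 0. The count became 2 without WT KLA replicate 1 and 0 without WT KLA replicate 2 or WT Veh replicate 2, 1 in NKO without KLA replicate 2 or Veh replicate 1, and 4 in flox without KLA replicate 2 or Veh replicate 1.

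Fabp5 at +13.4 kb fell in 3 of the 5 settings. H3K27ac went from 222 and 278 to 55.1 and 74.4 in flox (-1.94 ± 0.15, edgeR adjusted p = 2.86e-35), from 231 and 219 to 26.7 and 46.9 in flox Cre (-2.59 ± 0.17, edgeR adjusted p = 5.90e-48) and from 395 and 420 to 140 and 111 with DMSO (-1.69 ± 0.21, edgeR adjusted p = 5.68e-15). These calls were kept with TMM, and in all 3 settings the KLA libraries lay below the Veh libraries. In WT the same site went from 29.6 and 31.1 to 15.7 and 13.1 (-1.07 ± 0.42, edgeR adjusted p = 0.0767) and in NKO from 40.6 and 27.3 to 22.3 and 6.94, neither of them called with library totals and the first called with TMM (-1.21). NCoR fell at this site too, from 143 and 188 to 64.8 and 80.2 (-1.19 ± 0.24, edgeR adjusted p = 0.00297).

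Upstream of Fabp4, at -4.88 kb, H3K27ac fell from 75.6 and 78.5 to 22.7 and 21 with DMSO (-1.81 ± 0.29, edgeR adjusted p = 4.37e-09). Its decrease in flox, from 37.0 and 54.7 to 22 and 24.8, was under 2-fold (-0.96 ± 0.29). Cpt1a at -1.57 kb, beside the PU.1 region that fell, went from 111 and 116 to 47.3 and 53.9 with DMSO (-1.17 ± 0.25, edgeR adjusted p = 1.08e-05) and from 134 and 121 to 49.6 and 68.8 in flox (-1.10 ± 0.18, edgeR adjusted p = 1.2e-08), and both of these calls were lost with TMM (-0.75 and -0.67). Pparg at +58.4 kb fell from 41.6 and 51.9 to 26.4 and 17.2 in WT (-1.10 ± 0.32, edgeR adjusted p = 0.0149) and from 64.9 and 48.2 to 28.1 and 22.9 in NKO (-1.13 ± 0.31, edgeR adjusted p = 0.01, lost with TMM at -0.92). The difference between these 2 responses of Pparg was -0.03 ± 0.46 (edgeR adjusted p = 0.987).

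NKO cells were compared with WT. In NKO with Veh 0 regions were higher and 1 lower of 20 (0.973% and 0.027% of all), and with KLA 0 and 1 (0.4% and 0.389%). By an unadjusted p under 0.05, 2 were higher with Veh and 0 with KLA. The region in both comparisons was Ppard +15.1 kb, in the intron where NCoR had its strongest site. H3K27ac there was 15.8 and 15.8 tags per 10 M in WT with Veh and 0.737 and 2.32 in NKO with Veh (-3.24 ± 0.82, edgeR adjusted p = 0.0266). With KLA it was 13.8 and 18.6 in WT and 0 and 2.08 in NKO (-4.02 ± 0.89, edgeR adjusted p = 0.012). The 4 NKO libraries thus held almost no tags and the 4 WT libraries 13.8 to 18.6. Both calls were kept with TMM (-3.52 and -3.97), neither was made by DESeq2, and the call with Veh was lost when any 1 of the 4 Veh libraries was left out. The call with KLA was lost without NKO replicate 1 or WT replicate 2.

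Whether NKO and WT responded differently to KLA was tested as an interaction, which called 0 of the 20 regions by edgeR and by DESeq2 (0.027% of all regions higher and 0.67% lower), with an unadjusted p under 0.05 at 0 in the higher and 2 in the lower direction. At Plin2 -20.4 kb, H3K27ac fell in NKO from 21.4 and 27.3 to 3.72 and 6.25 (-2.30 ± 0.56, edgeR adjusted p = 0.00293) and was 13.9 and 11.7, then 6.92 and 11, in WT (-0.51 ± 0.54). The difference of these responses did not pass the threshold (-1.79 ± 0.78, edgeR adjusted p = 0.285).

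Between flox Cre and flox cells the calls came with KLA. With Veh 0 of the 16 regions were called by edgeR or DESeq2 (0.107% of all higher and 0.29% lower), and an unadjusted p under 0.05 was reached by 0 in the higher and 4 in the lower direction. With KLA 0 were higher and 5 lower (0.702% and 6.81% of all), which TMM changed to 1 and 0. The median of all regions was -0.38 there (0.01 with TMM), and -0.18 for the difference between the KLA responses (0.01 with TMM). That difference was called at 0 higher and 3 lower (0.77% and 4.6% of all), 0 and 1 with TMM. The 3 lay in Cd36, at -3.82 kb (chr5:17839212-17840212), at -4.88 kb of the next start (chr5:17854168-17855168) and at +8.76 kb of the most upstream start (chr5:17879704-17880704). At -3.82 kb H3K27ac was 269 and 271 in flox with Veh, 263 and 282 in flox with KLA, 277 and 264 in flox Cre with Veh, and 107 and 109 in flox Cre with KLA. The first 6 of these libraries were within 263 to 282 and the last 2 stood apart. Between flox Cre and flox with KLA the difference was -1.33 ± 0.12 (edgeR adjusted p = 1.75e-25, -0.94 and not called with TMM), and between their KLA responses -1.34 ± 0.16 (edgeR adjusted p = 2.31e-14), which TMM kept at -1.15.

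At -4.88 kb of Cd36 the same libraries held 211 and 220, 324 and 363, 215 and 192, and 147 and 152. H3K27ac thus lay higher with KLA in flox (0.68 ± 0.11, under 2-fold, and called with TMM at 1.11) and lower with KLA in flox Cre, and the responses differed by -1.13 ± 0.16 (edgeR adjusted p = 1.45e-10, -0.94 and not called with TMM). The region at +8.76 kb held 210 and 189, 230 and 254, 194 and 217, and 117 and 110, and its responses differed by -1.13 ± 0.18 (edgeR adjusted p = 8.41e-09, -0.94 and not called with TMM). The region at -7.69 kb followed with a smaller difference between the responses (-0.83 ± 0.30, edgeR adjusted p = 0.0373). PGC1β at +8.86 kb was 79.3 and 106 with Veh and 147 and 68.1 with KLA in wild-type cells, with overlapping groups, and its part in the H3K27ac differences was not tested.

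**Figure D4:**
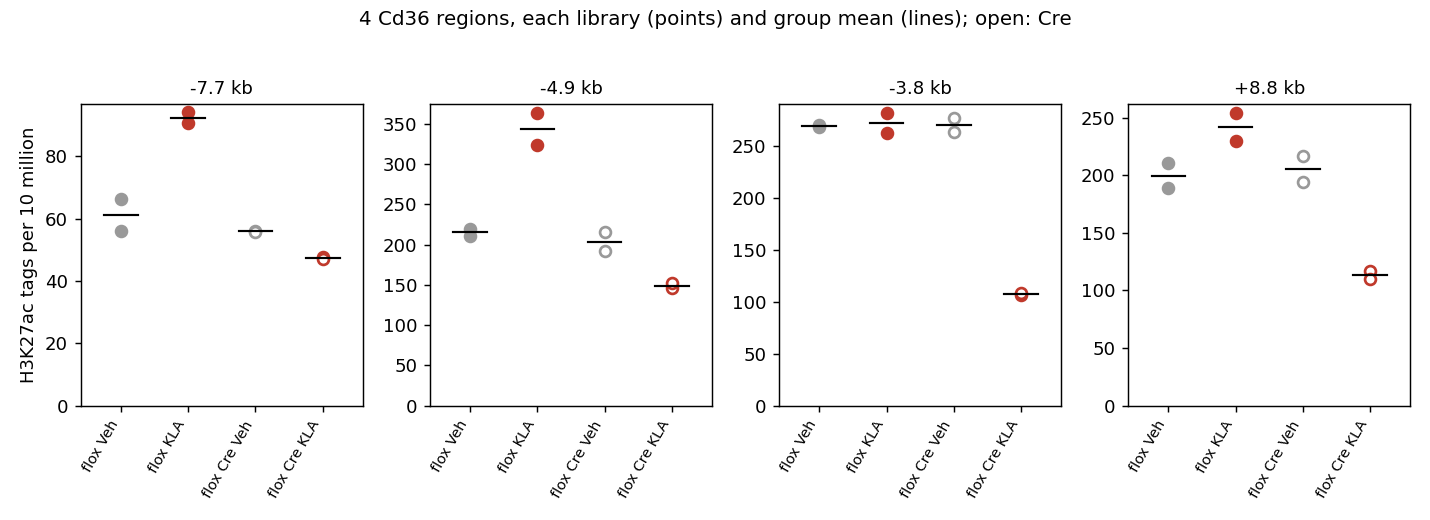
H3K27ac in tags per 10 M at 4 Cd36 regions, with 1 point per library of flox with Veh, flox with KLA, flox Cre with Veh and flox Cre with KLA (open points are flox Cre). At -3.82, -4.88 and +8.76 kb the flox Cre libraries with KLA (107 to 152) lie below all other libraries of the region, and the other 3 groups overlap or lie higher.

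The other calls between flox Cre and flox with KLA lay in Fabp5. At its promoter H3K27ac with KLA was 94.3 and 86.8 in flox and 38.3 and 44.3 in flox Cre (-1.13 ± 0.20, edgeR adjusted p = 1.01e-07, -0.74 and not called with TMM). Fabp4 -4.88 kb, singled out after its values were seen, lay the other way, with 22 and 24.8 in flox and 46.2 and 31.3 in flox Cre with KLA (0.72 ± 0.30, edgeR adjusted p = 0.0376), under 2-fold with library totals and the single call with TMM (1.11, higher). The Plin2 promoter, at 469 and 470 in flox and 277 and 268 in flox Cre with KLA, was lower by less than 2-fold (-0.79 ± 0.08), as was the Lpl promoter, at 293 and 314 against 204 and 207 (-0.56 ± 0.10). Pparg at +58.9 kb fell with KLA in flox Cre, from 329 and 306 to 119 and 111 (-1.47 ± 0.12, edgeR adjusted p = 6.07e-33), and went from 304 and 313 to 170 and 200 in flox (-0.73 ± 0.11). Its responses differed by -0.74 ± 0.16, less than 2-fold (edgeR adjusted p = 9.73e-05).

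RGFP966 was used to ask whether HDAC3 activity bears on acetylation with KLA. H3K27ac with RGFP966 and KLA was higher than with DMSO and KLA at 4 and lower at 0 of 16 regions (25% and 0%), against 26.9% and 9.53% of all, so the share that rose was close to that over all regions. TMM and DESeq2 called 0, and an unadjusted p under 0.05 was reached by 10 in the higher and 2 in the lower direction. The count was 2 without DMSO with KLA replicate 2 or without RGFP966 replicate 1. The 4 regions were Cpt1a -1.57 kb (47.3 and 53.9 to 143 and 101, 1.28 ± 0.24, edgeR adjusted p = 1.06e-06), Fabp4 -4.88 kb (22.7 and 21 to 58.6 and 42.7, 1.21 ± 0.30, edgeR adjusted p = 0.000169), Cd36 +8.76 kb (120 and 74.9 to 249 and 204, 1.2 ± 0.22, edgeR adjusted p = 2.93e-07) and Pparg +58.9 kb (179 and 147 to 342 and 315, 1.00 ± 0.20, edgeR adjusted p = 3.68e-06). Under TMM their differences were 0.94, 0.87, 0.85 and 0.66. Cpt1a and Fabp4 are regions that fell with KLA in the same experiment, and the comparisons share the DMSO libraries with KLA. Fabp5 +13.4 kb, which also fell with KLA, was 140 and 111 with DMSO and 194 and 192 with RGFP966, less than 2-fold higher (0.61 ± 0.21), and the Fabp5 promoter had overlapping groups (86.1 and 61.4 against 75.7 and 58.9).

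**Figure D5:**
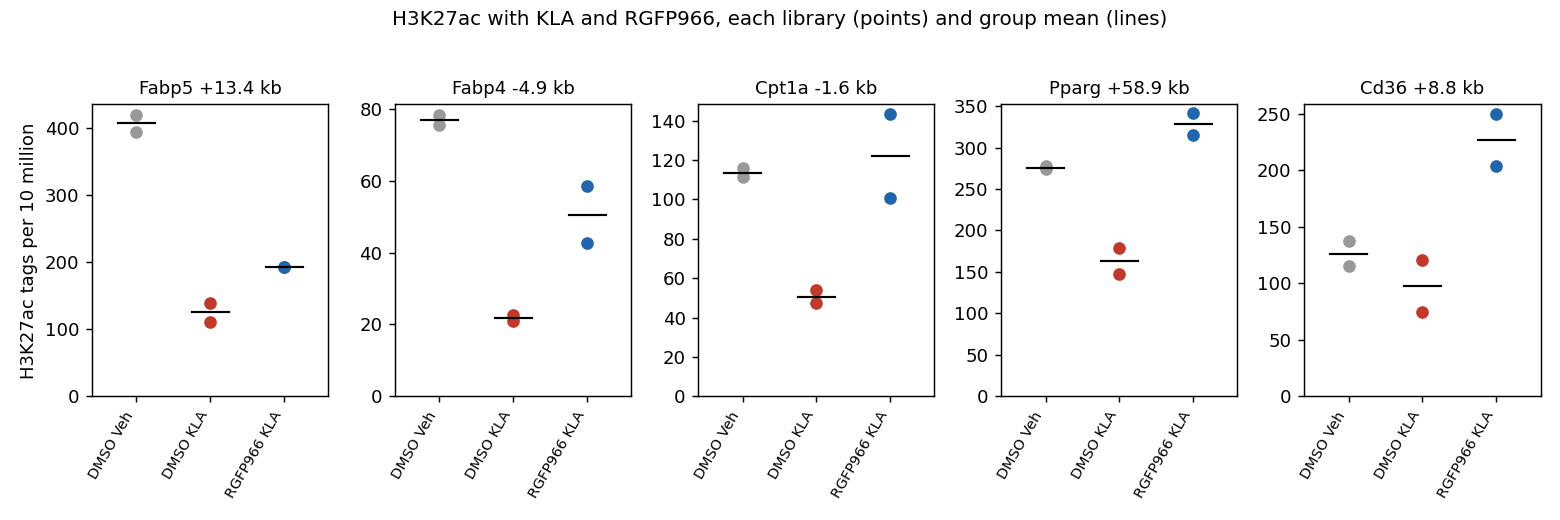
H3K27ac in tags per 10 M at 5 regions, with 1 point per library for DMSO with Veh, DMSO with KLA and RGFP966 with KLA. The RGFP966 libraries lie above the DMSO libraries with KLA at all 5 regions, and at Fabp5 +13.4 kb (192 and 194) and Fabp4 -4.88 kb (42.7 and 58.6) they lie below the DMSO libraries with Veh.

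A list of 44 further genes of PPAR and lipid pathways gives the setting, of which 38 had regions and Plin1, Plin4, Plin5, Cidec, Gpihbp1 and Vldlr had none. With KLA, NCoR rose at 22 and fell at 18 of their 114 regions, against 23.4% and 16.7% of all regions. HDAC3 rose at 30 and fell at 13 of 104 (23 and 20 with TMM), against 27.5% and 11.3%. For p65 the numbers were 52 and 8 of 87 (23 and 25 with TMM), against 57% and 5.43%. PU.1 had 6 and 14 of 86 (11 and 9 with TMM), against 4.53% and 21.7%. PGC1β had 22 and 13 of 77, against 16.4% and 6.35%. p300 had 65 and 18 of 125 (56 and 24 with TMM), against 42.1% and 12.9%. The list was not tested against these shares. The rises of lowest p for both p65 and p300 were at Acsl1, which encodes an enzyme that activates fatty acids. At -38548 bp of Acsl1 p65 rose from 11.4 and 14.0 to 504 and 547 (5.37 ± 0.25, edgeR adjusted p = 6.40e-07). At -38565 bp of Acsl1 p300 rose from 11.3 and 10.5 to 346 and 360 (5.01 ± 0.21, edgeR adjusted p = 6.95e-11). Pnpla2, the gene of a triglyceride lipase of lipid droplets, lost NCoR at +1034 bp, from 88.4 and 89.5 to 21.9 and 12.5 (-2.38 ± 0.37, edgeR adjusted p = 0.000688). With ERKi, NCoR was lower at 49 and higher at 1 of 118 regions (4 and 2 with TMM), against 48.6% and 0.634% of all regions.

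In H3K27ac, 7 regions of the list rose and 15 fell of 48 with KLA and DMSO, against 6.73% and 28.1% of all regions. The lowest adjusted p among those that fell belonged to Lipa, the gene of lysosomal acid lipase, at +8029 bp (588 and 591 to 124 and 92.6, -2.43 ± 0.21, edgeR adjusted p = 2.30e-29). RGFP966 gave 12 higher and 6 lower of 48 (6 and 9 with TMM), against 26.9% and 9.53% of all regions. Between flox Cre and flox with KLA, 2 were higher and 4 lower of 48, against 0.702% and 6.81% of all regions, and TMM turned the balance to 2 and 1. The lowest adjusted p among the lower ones was at -1930 bp of Nr1h3, the gene of liver X receptor α (280 and 286 against 89.6 and 98.3, -1.59 ± 0.12, edgeR adjusted p = 2.61e-34). Between NKO and WT 0 of 39 regions of the list were called with Veh or with KLA by edgeR. Of all regions, 0.973% were higher and 0.027% lower with Veh, and 0.4% and 0.389% with KLA.

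The genes whose H3K27ac varied most like that of a member over the 8 libraries of the WT and NKO experiment were found by Pearson's r of log2 values (pseudocount 1) at the strongest regions. They are a description over libraries that share groups. Each is among the highest values of a search over 18504 tested regions with only 8 libraries, so a high r alone carries little weight. For Pparg +58.4 kb the closest was Trem2 (0.988), followed by E030018B13Rik (0.985) and Btbd10 (0.984). Fabp5 was closest to Otud5 (0.986), Gstm1 and Irf2bpl (each 0.973), and Cd36 to Kctd16 (0.981), Atp9b (0.969) and Rps10 (0.967). Plin2 was close to Qser1 (0.976) and Klhl7 (0.974), Cpt1a to Gtf3a (0.956), Rhob (0.951) and Cuedc1 (0.949), and Ppard to Clmp (0.958), 1810013L24Rik (0.936) and 4930547E14Rik (0.921).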

How the data were processed

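ChIP-seq tags were taken from 15 tables of counts per region that the authors deposited, made per the file headers and the study's methods with Bowtie2 alignment to mm10 and HOMER peak finding, IDR selection of peaks and annotatePeaks without normalization, counting at most 3 tags per position. Regions were merged within a table, so each is counted in all its libraries. For H3K27ac the study's methods name ATAC-seq peaks or peaks of factors as the places of counting. Factor chromatin was fixed with disuccinimidyl glutarate and formaldehyde and H3K27ac chromatin with formaldehyde alone, and the RGFP966 and PGC1b H3K27ac regions are fixed at 1000 bp. Versions are not given in the sources used here, and inputs were not analysed.

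Each table was fitted over all its regions with at least 4 tags (factors) or 16 (H3K27ac) in at least 1 library, with edgeR 4.0.16 (R 4.3.3, quasi-likelihood F-test) on library totals in the headers, over 25 comparisons, with Benjamini-Hochberg adjustment over the table. Calls needed an adjusted p under 0.05 and more than 2-fold. Alternatives were TMM scaling, DESeq2 1.42.0 (Wald test), no minimum on tags, a replicate block and leaving out each library. Replicate numbers were compared over 31 pairs (r = -0.0266 to 0.0255 of deviations). This showed no sign that the numbers pair the samples, though noise at regions with few tags could hide a pairing.

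Regions named are, per gene and table, the promoter region, the strongest region and the called region of lowest p in each direction, with exceptions stated. All 933 regions lay within 5 bp of the listed distance to a RefSeq start. The members and lists were chosen with earlier results of these data known. The fit was tested on simulated data.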

Additional observations from a re-analysis of the deposited data

Results flagged for a closer look

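In the PGC1b experiment, H3K27ac at 3 Cd36 regions responded to KLA differently in the 2 genotypes, as tested by the interaction of Cre and KLA. The response in flox Cre minus that in flox was, on the log2 scale, -1.34 at -3.82 kb (chr5:17839212-17840212), -1.13 at -4.88 kb (chr5:17854168-17855168) and -1.13 at +8.76 kb (chr5:17879704-17880704). The distances are to 3 different starts of Cd36. The libraries of flox Cre with KLA were the lowest of all 8 at each of these regions (107 to 152 tags per 10 M). They also held fewer of their tags in regions over the whole table, 22.38% and 21.97% against 29.93% to 35.87% in the other libraries. The median interaction over all regions was -0.18, and 4.6% of all regions were called lower in it. With TMM scaling the interaction was kept at the first region and fell short of 2-fold at the other 2.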

How the results depend on the processing

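Numbers of regions of the 9 genes that were called are given here, and the cause of each shift was not tested. With DESeq2 and with TMM scaling, respectively, p65 with KLA had 42 and 44 calls (45 in the report) and p300 with KLA 54 and 58 (57), both with a majority lower. Fosl2 had 11 and 13 (4), PU.1 14 and 14 (24), NCoR with ERKi 10 and 8 (54), p300 at Day4 2 and 7, all lower (11), ERK1 at Day4 0 and 0 (2), and RGFP966 0 and 0 (4). For H3K27ac with KLA there were 1 and 1 in NKO (3), 3 and 3 in flox (2), 2 and 2 in flox Cre (6), and 3 and 3 with DMSO (5), and between flox Cre and flox 1 and 1 with KLA (5) and 1 and 1 for the interaction (3). With TMM PGC1β had 19 (9 higher, 10 lower) and H3K27ac in WT 2 (1), and the single calls of NKO against WT became 0 with DESeq2. PGC1β with DMSO had 12 with DESeq2, of which 7 were lower. The balance of higher and lower calls turned for PGC1β under TMM scaling and for PGC1β with DMSO under DESeq2. Under both alternatives it turned for flox with KLA and for flox Cre against flox with KLA.

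The replicate block left 0 calls for Fosl2 and 1 for ERK1, and gave 31 for NCoR and 27 for HDAC3. Whether the replicate numbers pair the samples is not known from the labels. Leaving out 1 library, with the remaining one assumed to vary like the other group's, gave 18 to 43 calls for NCoR, 9 to 34 for HDAC3, 22 to 50 for p65, 0 to 18 for Fosl2, 22 to 24 for PU.1, 6 to 24 for PGC1β, 0 to 4 for ERK1, 39 to 57 for p300, 6 to 10 for PGC1β with DMSO, 38 to 56 for NCoR with ERKi, 0 to 4 for ERK1 at Day4 and 2 to 18 for p300 at Day4. For H3K27ac it gave 0 to 2 for KLA in WT, 1 to 4 in NKO, 2 to 4 in flox, 5 to 6 in flox Cre and 4 to 6 with DMSO, 0 to 0 and 0 to 1 for NKO against WT with Veh and with KLA, 4 to 6 for flox Cre against flox with KLA, 3 to 4 for the interaction and 2 to 6 for RGFP966. A minimum on tags moved no count by more than 1.5 times. Each group had 2 libraries of 4.30 M to 21.5 M tags, which limits what could be called at regions with few tags. Of 149 named differences, 111 kept their direction and side of the threshold with DESeq2 and 116 with TMM scaling, 33 and 27 fell short of it, 5 and 6 newly passed it, and 0 changed direction. With the replicate block 138 kept their side. Over 624 fits of these differences that each left out 1 library, 527 kept direction and side, 91 fell short, 5 newly passed and 1 changed direction. Leaving out 1 library changed the direction of 1, HDAC3 at +6.33 kb of Lpl, which was -0.036 without KLA replicate 1 and 1.63 without KLA replicate 2.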
